A study of Mus musculus with 4 samples.

Results

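The Wnt module described here holds the mouse genes for Wnt ligands, Frizzled receptors, LRP coreceptors, secreted Wnt modulators and 2 nuclear or feedback genes of the pathway. Members were chosen by name. They are the genes whose symbol in the array's annotation starts with Wnt, Fzd, Dkk, Sfrp or Rspo followed by a digit, together with Wif1, Axin2, Lef1, Lrp5 and Lrp6. The rule also lists Tcf7, which was not analysed here. It gave 47 of 18193 genes, measured by 89 probe sets. Where a gene had several probe sets, the brightest on average stood for it. One of the 47, Fzd10os, is a transcript from the strand opposite Fzd10 and no receptor gene.

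Expression was measured on 4 arrays in podoplanin-selected cells from the axillary lymph node that drains a tumour under the skin of the flank. The hosts were female SCID/NOD mice, a strain with impaired immunity, aged 6 to 8 weeks per the labels. Metastatic preparations (2) came from mice with tumours of 293-VEGF-D cells, human embryonic kidney cells made to overexpress the lymphatic growth factor VEGF-D. Non-metastatic preparations (2) came from mice with tumours of 293-Apex cells, without VEGF-D. Tumours had grown for 3 to 4 weeks, to between 1600 and 2500 mm3, and each preparation pooled the nodes of 1 to 5 mice. The stromal cells of all preparations were cultured briefly before the selection. Metastatic nodes were used only when visibly enlarged. One label gives a removal of leukocytes and tumour cells for the metastatic preparations alone, whereas the growth protocol describes it for all. VEGF-D, node enlargement and, by that label, the removal step therefore go with the group and cannot be told apart from metastasis.

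The cells are labelled as an enriched endothelial fraction. The lymphatic regulator Prox1 and the endothelial junction genes Pecam1 and Cdh5 had mean log2 signals of 4.00, 4.94 and 5.87, below the median of all probe sets (5.95). Other lymphatic or blood endothelial markers were brighter, among them Pdpn (10.60), Kdr (7.53), Emcn (7.35) and Lyve1 (6.65). Pdpn encodes the podoplanin on which the cells were selected. Several fibroblast and smooth muscle markers were brighter than all of these, among them Col1a2 (14.22), Acta2 (14.20) and Pdgfrb (12.27). Of the fixed markers, 4 of 8 lymphatic endothelial, 6 of 9 blood endothelial and 4 of 8 leukocyte genes lay below the median. So did 1 of 9 fibroblast, 2 of 9 smooth muscle, 5 of 10 epithelial and mesothelial and 2 of 5 adipocyte genes. Lyve1 lay above the median through its non-metastatic arrays, since its metastatic mean was 5.27. Of all 18193 genes, 6267 lay below the median. Such dim probe sets cannot be called absent on these arrays. In mixed cells, fewer cells of a type and less RNA per cell cannot be told apart.

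Wnt proteins are lipid-modified ligands that bind Frizzled receptors. Together with LRP5 or LRP6 they keep beta-catenin from degradation, so that it activates genes with TCF and LEF factors. Other Wnts, Wnt5a among them, act mainly through routes without beta-catenin that steer cell polarity and movement. Secreted proteins tune these signals: Dickkopf proteins bind LRP5 and LRP6, secreted Frizzled-related proteins and Wif1 bind Wnts, and R-spondins raise the number of Frizzled receptors at the surface. In vessels the pathway is known for its part in sprouting, in the barrier of the brain and retina, and in the valves of lymphatic vessels.

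The largest differences of the module lay in secreted modulators and receptors. Dkk2 and Sfrp2 had 3.24-fold and 2.70-fold higher signal in the metastatic group, while Fzd4 and Sfrp1 had 2.16-fold and 1.94-fold lower signal. The arrays of the groups overlapped for Sfrp2 and did not for Dkk2, Fzd4 and Sfrp1. Tested with limma over 45037 probe sets and adjusted by Benjamini-Hochberg, no member reached 0.05. The share of all probe sets that passed was 0%, with 0 calls and 2731 probe sets at an unadjusted p under 0.05.

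Promoters of the members past 2-fold whose groups did not overlap are shown, since these are the genes on which the account turns. They run from 250 bases before to 50 bases after the transcript start and come from RefSeq on build GRCm38.p6, which held 36 promoters for 30 of the 47 members. Dkk2 lies at chr3:132085042-132085341 and Fzd4 at chr7:89404116-89404415, both on the plus strand. Capitals mark matches on either strand to 2 motifs. TATAAA is the TATA box, where transcription complexes assemble. GGGCGG is the core of the GC box, which Sp factors bind.
Dkk2: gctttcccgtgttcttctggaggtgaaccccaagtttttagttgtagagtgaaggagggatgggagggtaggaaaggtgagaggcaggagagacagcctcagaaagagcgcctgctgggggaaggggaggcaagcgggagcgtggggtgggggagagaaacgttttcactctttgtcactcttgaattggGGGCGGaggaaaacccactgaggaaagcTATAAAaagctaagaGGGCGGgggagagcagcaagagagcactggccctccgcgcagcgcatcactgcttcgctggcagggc
Fzd4: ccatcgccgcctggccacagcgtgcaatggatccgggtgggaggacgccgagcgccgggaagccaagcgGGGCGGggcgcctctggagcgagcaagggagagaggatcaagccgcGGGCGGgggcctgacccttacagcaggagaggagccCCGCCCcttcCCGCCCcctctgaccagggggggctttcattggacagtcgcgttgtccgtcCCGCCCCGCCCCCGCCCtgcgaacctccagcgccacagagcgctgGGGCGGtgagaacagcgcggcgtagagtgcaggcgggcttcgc
The Dkk2 window held 1 TATAAA, starting 32 bases before the start, and 2 matches to GGGCGG. The Fzd4 window held no TATAAA and 8 matches to GGGCGG, of which a pair shares 1 base. Its GC content was 72.7%, against 57.7% for Dkk2 and a median of 52.7% over 32851 promoters. TATAAA occurs in 13.6% and GGGCGG in 35.7% of those promoters. Of the 36 member promoters, 6 held TATAAA and 27 held GGGCGG, so the latter is common in the module. The TCF and LEF motifs CTTTGAT and CTTTGAA, found in 3.73% and 5.14% of all promoters, matched neither window. Among members they matched those of Wnt5b and Wnt11, and of Dkk1. A match is a description of the letters and not of binding.

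Across the module, 16 genes had higher and 31 lower mean signal in the metastatic group, with a median log2 difference of -0.08 beside 0.00 over all genes. At an unadjusted p under 0.05 stood 6 members, 12.8% of the 47, where 6.70% of all genes did. One was higher, Dkk2 (2.13%, against 2.63% of all genes), and 5 were lower, Fzd4, Sfrp1, Fzd5, Fzd7 and Wnt2 (10.6%, against 4.07%). These counts rest on single arrays: without metastatic replicate 2 the 6 became 11 (23.4%), with 4 of the 6 among them. The probe sets at that p then rose in number too, from 2731 to 6418, or 14.3% of all. Past 2-fold stood 3 members (Dkk2, Sfrp2 and Fzd4), where 0.945% of all genes did. The groups did not overlap for 6 members that were higher (12.8%, against 17.2% of all genes) and 12 that were lower (25.5%, against 17.3%). A mean signal at or above the median of all probe sets was found for 28 members and for 11926 of all 18193 genes. All 6 members at an unadjusted p under 0.05 were among the 28. Of all genes at or above that median 8.61% stood at that p, against 3.06% of those below it. Dkk2 was among the 28 through its metastatic arrays, since its non-metastatic mean of 5.44 lay below the median (5.95).

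**Figure D1:**
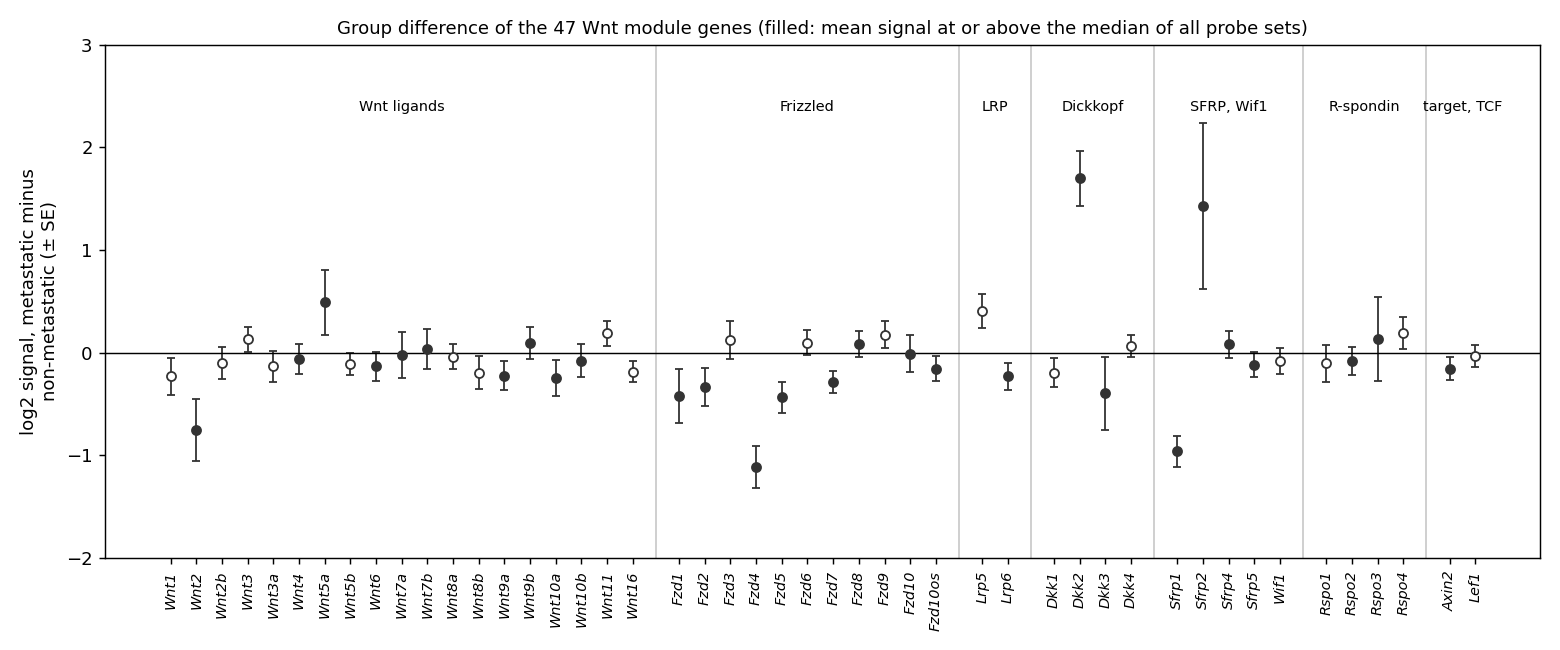
Difference in log2 signal, metastatic minus non-metastatic, for each of the 47 genes, by family, with the standard error from limma (2 arrays a group). Filled points have a mean signal at or above the median of all probe sets. Dkk2 and Sfrp2 stand highest at 1.70 and 1.43, Fzd4 and Sfrp1 lowest at -1.11 and -0.96, and most members lie near 0.

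Among the ligands, 5 of 19 Wnt genes were higher and 14 lower, with differences from -0.75 to 0.49. Wnt2, a ligand made by endothelial and stromal cells of several organs, had log2 signals of 7.19 and 7.33 on the metastatic arrays and of 8.49 and 7.54 on the non-metastatic ones. All values were lower in the metastatic group, but non-metastatic replicate 1 stood apart from the rest. The difference was -0.75 (SE 0.30; limma adjusted p = 0.821), and it shrank to -0.28 when that array was left out, against -1.23 when the other non-metastatic array was.

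Wnt5a, the ligand of polarity and movement signals, had 8.67 and 9.64 on the metastatic arrays against 8.76 and 8.57. Only metastatic replicate 2 was high, and the groups overlapped. The mean difference of 0.49 (SE 0.31; limma adjusted p = 0.935) became 0.98 without metastatic replicate 1 and 0.00 without metastatic replicate 2. All 4 probe sets of Wnt5a had positive differences, of 0.49, 0.38, 0.39 and 0.14.

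The remaining ligands varied less. Wnt4, which acts in kidney and gonad development, had 6.86 and 7.01 against 7.14 and 6.84. Wnt6 had 6.66 and 6.91 against 6.83 and 7.01. In both genes the groups overlapped. Wnt7a, which with Wnt7b directs the vessels of the brain, had 7.76 and 8.41 against 8.06 and 8.15. Wnt7b had 7.48 and 8.01 against 7.63 and 7.79. The metastatic arrays were the lowest and the highest in both of these genes. Wnt9a had 5.93 and 6.22 against 6.24 and 6.35, so that the metastatic arrays were lower by a narrow margin. Wnt9b had 6.09 and 6.39 against 6.02 and 6.27, and the groups overlapped. Wnt10a had 5.80 and 6.25 against 6.20 and 6.34, and Wnt10b 5.73 and 6.13 against 6.05 and 5.96. In both of these metastatic replicate 1 was the lowest array and the groups overlapped. The difference of Wnt7a turned from -0.02 to 0.00 (positive) when array medians were centred, and that of Wnt7b from 0.04 to -0.02 with the mean of its probe sets.

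The other 9 ligand genes (Wnt1, Wnt2b, Wnt3, Wnt3a, Wnt5b, Wnt8a, Wnt8b, Wnt11 and Wnt16) had mean signals below the median of all probe sets, from 3.54 to 5.94. Their differences ran from -0.23 to 0.19, with 2 higher and 7 lower. At that brightness a small difference does not show that expression was alike.

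Of the 10 Frizzled genes, 4 were higher and 6 lower, and 3 of them (beside 4.07% of all genes) were lower at an unadjusted p under 0.05. Fzd4, the receptor for norrin and for several Wnts in retinal vessels, had 9.06 and 8.47 on the metastatic arrays against 9.86 and 9.90. The non-metastatic arrays lay close together and both metastatic ones below them. The difference was -1.11 (SE 0.20; limma adjusted p = 0.379), with -0.82 if metastatic replicate 2 was left out. If metastatic replicate 1 was left out it was -1.40 and passed (limma adjusted p = 0.0494, in a range of 0.0494 to 1 over the alternatives). A further probe set of Fzd4 had a difference of -0.53 (SE 0.15), with 7.75 and 7.83 against 8.50 and 8.14. The third, dim at 4.30, had -0.04 (SE 0.13), and the mean of the 3 gave -0.56.

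**Figure D2:**
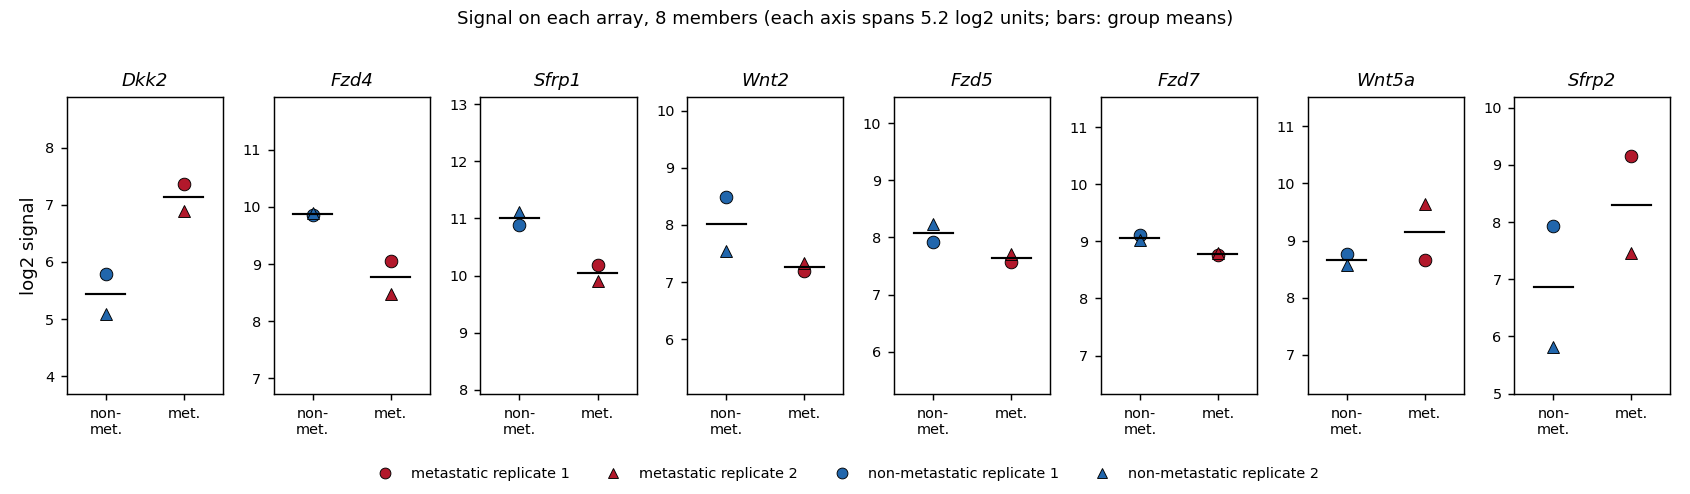
Log2 signal on each of the 4 arrays for 8 members, with circles for replicate 1, triangles for replicate 2 and bars at group means. Each axis spans the same number of log2 units around the gene's own mean, so spreads can be compared and levels between genes cannot. The groups are separate for Dkk2, Fzd4, Sfrp1, Wnt2, Fzd5 and Fzd7, and overlap for Wnt5a and Sfrp2.

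Fzd5, a receptor needed for vessels of the yolk sac and placenta, had 7.56 and 7.71 against 7.91 and 8.23. Both metastatic arrays were lower. The difference was -0.44 (SE 0.15; limma adjusted p = 0.732), and -0.28 without non-metastatic replicate 2. Its other probe set, below the median, stood at 0.06 (SE 0.11), and the mean of the pair gave -0.19. Fzd7 had 8.77 and 8.80 against 9.11 and 9.02, a difference of -0.28 (SE 0.11; limma adjusted p = 0.793). The spread within each of its groups was small (SD 0.02 and 0.06, n = 2 each), and its second probe set had -0.15 (SE 0.13).

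Fzd2 had 9.46 and 9.97 against 10.11 and 9.98, so that the gap between the groups was only that between 9.97 and 9.98. The difference of -0.33 was -0.08 without metastatic replicate 1. Its 3 probe sets agreed in sign, with differences from -0.33 to -0.27. Fzd1 had 10.42 and 9.76 against 10.75 and 10.27, with overlapping groups and a difference of -0.42 (SE 0.26). It was -0.09 without metastatic replicate 2. Its other probe set gave 0.15 (SE 0.22), in the opposite direction. Fzd8 had 7.73 and 7.51 against 7.60 and 7.46, and Fzd10 7.27 and 7.74 against 7.60 and 7.44. Neither separated the groups. Fzd10os, which lies opposite Fzd10, had 6.51 and 6.65 against 6.66 and 6.82. The probe sets of Fzd3, Fzd6 and Fzd9 that stood for these genes were below the median, with differences of 0.12, 0.10 and 0.18. The 6 probe sets of Fzd3 ran from 0.02 to 0.45. The other 2 of Fzd6 pointed in the opposite direction, at -0.38 (SE 0.23) and -0.06 (SE 0.13).

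The coreceptors Lrp5 and Lrp6, to which Wnts and Dickkopf proteins bind, pointed in opposite directions. Lrp5 was dim, with 5.29 and 4.94 against 4.58 and 4.83 and a difference of 0.40 (SE 0.17; limma adjusted p = 0.827). It was 0.23 without metastatic replicate 1. Lrp6 had 8.33 and 8.43 against 8.73 and 8.49, a difference of -0.23 (SE 0.13; limma adjusted p = 0.918). The groups did not overlap for either gene. The other probe set of Lrp6 stood at 0.06 (SE 0.14), and the first at -0.11 without non-metastatic replicate 1.

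Among Dickkopf genes Dkk2 had the largest difference of the module. The protein binds LRP6 and blocks or, in some settings, activates Wnt signalling. Its signals were 7.37 and 6.90 on the metastatic arrays and 5.79 and 5.08 on the non-metastatic ones. Every metastatic value exceeded every non-metastatic one, by more than the distance between replicates of either group. The means were 7.13 ± 0.33 and 5.44 ± 0.50 (SD, n = 2 each), a difference of 1.70 (SE 0.27; limma adjusted p = 0.337). Leaving out single arrays gave 1.35 to 2.05, the extremes being those without a non-metastatic array. Dkk2 was measured by a single probe set, so no second one could be compared.

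The other Dickkopf genes differed less. Dkk3, which does not act on LRP5 or LRP6 as its relatives do, had 9.64 and 8.72 against 9.92 and 9.23. The groups overlapped, the difference was -0.40 (SE 0.36), and its second probe set gave -0.42. Dkk1, the best known antagonist of the family, and Dkk4 had mean signals of 4.80 and 4.45, below the median, with differences of -0.19 (SE 0.14) and 0.07 (SE 0.11). The groups overlapped for Dkk1 and were barely separate for Dkk4.

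The secreted Frizzled-related genes, whose products bind Wnts outside the cell, split between lower Sfrp1 and higher Sfrp2. Sfrp1 had 10.18 and 9.90 on the metastatic arrays against 10.89 and 11.11. The non-metastatic arrays were both well above the metastatic ones. The means were 10.04 ± 0.20 and 11.00 ± 0.15 (SD, n = 2 each), with a difference of -0.96 (SE 0.15; limma adjusted p = 0.321). It stayed between -1.10 and -0.82 when any 1 array was left out. All 5 probe sets of Sfrp1 separated the groups in the same direction. Their differences were -0.96, -1.08, -0.82, -1.16 and -0.28, and the last belongs to a probe set whose name marks it as able to bind several transcripts. Probe sets of a gene share the same RNA and are not replicates.

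**Figure D3:**
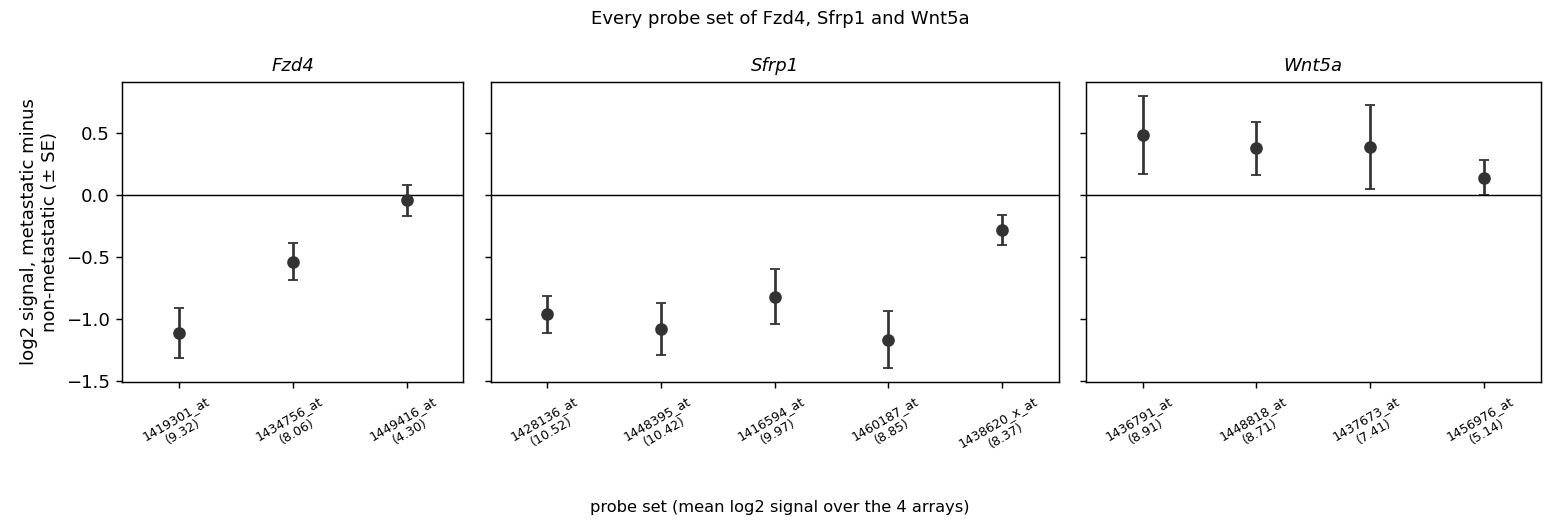
Difference in log2 signal (metastatic minus non-metastatic, with standard error) for every probe set of Fzd4, Sfrp1 and Wnt5a, ordered by mean signal, which stands in brackets. The 5 probe sets of Sfrp1 lie below 0, from -1.16 to -0.28. Of those of Fzd4, the dimmest lies near 0. The 4 of Wnt5a lie above 0.

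Sfrp2 had 9.15 and 7.45 on the metastatic arrays against 7.93 and 5.82. In each group replicate 1 was higher, and the groups overlapped, since non-metastatic replicate 1 exceeded metastatic replicate 2. The difference of 1.43 (SE 0.81; limma adjusted p = 0.916) was 2.70-fold but smaller than the distance between the replicates of either group, 1.70 and 2.11. Leaving out non-metastatic replicate 2 gave 0.38 and leaving out metastatic replicate 1 gave 0.58. With metastatic replicate 2 or non-metastatic replicate 1 left out, it was 2.28 or 2.48. Sfrp4 had 7.98 and 8.12 against 7.86 and 8.08, and Sfrp5 7.02 and 7.23 against 7.21 and 7.28. Both overlapped between the groups. Wif1 was dim (3.60), with a difference of -0.08 (SE 0.13).

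R-spondins sustain Wnt signals by removing the ubiquitin ligases that take Frizzled receptors off the surface, and Rspo3 is the member known from endothelium and stroma. Rspo3 had 7.68 and 6.95 against 7.73 and 6.62, so that replicate 1 was the higher array in both groups. The difference of 0.14 (SE 0.41) was smaller than its error, and its sign turned to -0.42 when non-metastatic replicate 2 was left out, against 0.70 when replicate 1 of that group was. Rspo2 had 6.08 and 6.37 against 6.28 and 6.32, with overlapping groups. Rspo1 and Rspo4 were dim, at 4.34 and 4.33, with differences of -0.10 (SE 0.18) and 0.19 (SE 0.15).

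Of the 47 members, 11 had higher signal on replicate 1 than on replicate 2 in both groups, and 19 had lower. The share of all genes that did so was not counted, so these counts describe the members only. Among the 11 were Sfrp2, Rspo3, Dkk3 and Fzd1, and also Dkk2, by 0.47 in the metastatic and 0.70 in the non-metastatic group. These 5 were put together after their values were seen. Among the marker genes, the fat cell hormone gene Adipoq had 9.04 and 4.52 on the metastatic arrays against 8.40 and 5.66. The matrix gene Dcn of fibroblasts had 9.88 and 8.63 against 10.23 and 8.23. Both were also higher on replicate 1 in each group, and were likewise picked after their values were seen. Of the marker lists they come from, 3 of 5 adipocyte and 4 of 9 fibroblast genes were higher on replicate 1 in both groups, and 3 fibroblast genes (Col1a1, Col1a2 and Thy1) were lower. So were higher 6 of 9 blood endothelial, 3 of 8 lymphatic and 3 of 8 leukocyte genes, with 1, 1 and 2 lower. Of 10 epithelial and mesothelial genes 1 was higher and 6 were lower, and of 9 smooth muscle genes 0 and 4. Over the 5 adipocyte markers measured, the mean log2 signal was 8.16 and 6.47 on the metastatic arrays and 7.24 and 6.84 on the non-metastatic ones. Over 9 fibroblast markers it was 11.19 and 10.96 against 11.25 and 11.06. The part of fat, stromal, endothelial or other cells in the values of Sfrp2, Rspo3, Dkk3, Fzd1 and Dkk2 was not tested.

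**Figure D4:**
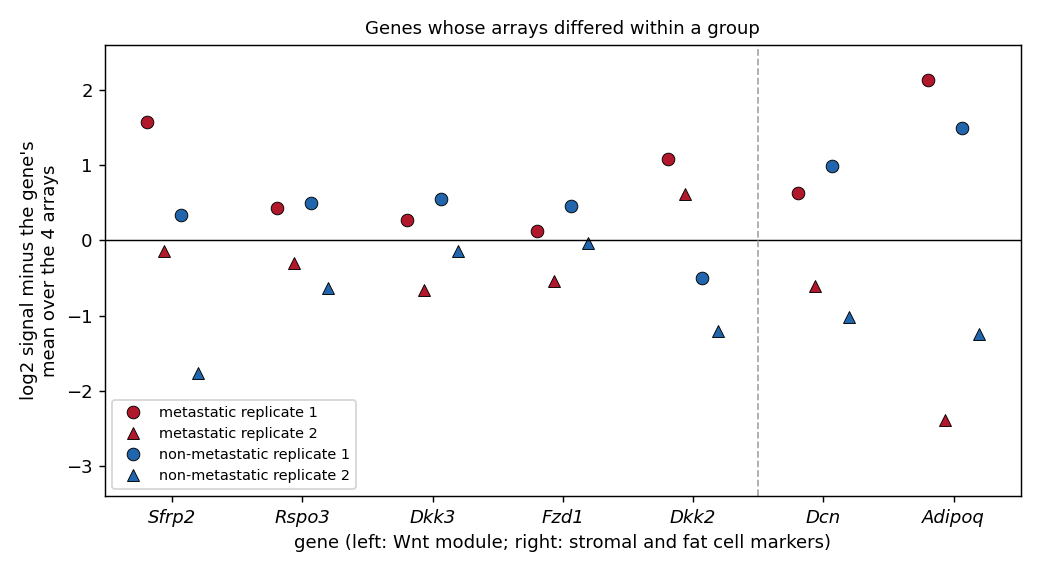
Log2 signal of 5 Wnt module genes and 2 marker genes on each array, minus the gene's mean over the 4 arrays. Circles are replicate 1 and triangles replicate 2. For each of the 7 genes the circle lies above the triangle of the same colour, and for Adipoq the distance between the metastatic arrays is the largest shown, 9.04 against 4.52.

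Axin2 and Lef1 close the module. Axin2, a feedback inhibitor that beta-catenin signalling induces in many cells, had 6.23 and 6.27 against 6.35 and 6.47. The metastatic arrays were slightly lower, by -0.16 (SE 0.11; limma adjusted p = 0.948). Its dimmer probe set was slightly higher by 0.17 (SE 0.11), and the mean of the pair gave 0.01. Lef1, a nuclear partner of beta-catenin, was dim with 5.66 and 5.61 against 5.61 and 5.71. Its difference was -0.03 (SE 0.11), and 0.08 with the mean of its probe sets. Neither gene differed by more than 2 standard errors.

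Of the 28 members with several probe sets, 16 had differences of one sign and 12 had differences of both signs. No member with mixed signs had a probe set that differed by 0.5 or more.

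Some markers of other cells differed between the groups as well, though no marker passed adjustment with limma. Of 9 smooth muscle and pericyte markers, 8 were lower in the metastatic group and 5 (55.6%, beside 4.07% of all genes) stood at an unadjusted p under 0.05. Their summed log2 signal was 69.5 to 72.4 on the metastatic and 76.1 to 78.0 on the non-metastatic arrays. For 9 blood endothelial markers the sums were 49.9 to 53.0 against 53.5 to 56.5, with 5 lower and 4 higher. Emcn, a surface protein of vessels, alone differed by -2.53, and without it the sums were 44.2 to 46.5 against 45.0 to 47.7. For 8 lymphatic markers they were 47.5 to 50.1 against 50.4 to 52.6, with 6 lower and 2 higher. Lyve1, a hyaluronan receptor, differed by -2.76, and without it they overlapped, at 43.2 to 43.7 against 42.6 to 44.3. Pdpn, the gene of the podoplanin used for the selection, was higher by 0.51 (SE 0.11). It had 10.89 and 10.83 on the metastatic arrays against 10.35 and 10.35. For 8 leukocyte markers the sums were 47.5 to 48.9 against 49.7 to 51.5, with 5 lower and 3 higher. Among them Lyz2 differed by -1.47, with 6.06 and 6.16 against 8.29 and 6.86, while the median difference of the list was -0.14. For the 10 epithelial and mesothelial markers the sums overlapped, at 59.5 to 62.5 against 61.2 to 63.4. Of these genes 8 were lower and 2 higher. Single genes of the list did separate the groups, among them Wt1 with a difference of 1.00 (SE 0.24) and Msln with -1.44 (SE 0.65). The part of these cells in the values of Fzd4, Sfrp1, Fzd5, Fzd7 and Wnt2 was not tested.

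Further genes of the pathway were read from 3 lists made by function, without the members. Of their 59 genes, 28 were higher and 31 lower, and 6 stood at an unadjusted p under 0.05, which is 10.2% beside 6.70% of all genes. None passed over all probe sets. Of 22 genes for Wnt release and membrane partners, 8 were higher and 14 lower, with 2 (9.09%, beside 6.70% of all genes) at an unadjusted p under 0.05, both lower. Ror1, a receptor tyrosine kinase that binds Wnt5a, had 9.75 and 10.11 against 10.77 and 10.60, a difference of -0.75 (SE 0.16; limma adjusted p = 0.430). Frzb, a further secreted Frizzled-related protein, had 5.30 and 5.64 against 6.13 and 6.38, a difference of -0.78 (SE 0.16; limma adjusted p = 0.430). Both metastatic arrays were below both non-metastatic ones in each gene. The proteoglycan gene Gpc3 and the Wnt receptor gene Ryk stood at 0.62 (SE 0.26) and 0.30 (SE 0.12), and Gpc3 at 0.24 without non-metastatic replicate 2. Averaged over their probe sets, Ror1 stood at -0.40 and Ryk at 0.13. Wls, which carries Wnts to the cell surface, had 11.21 and 11.32 against 11.22 and 11.31, a difference of 0.00 (SE 0.11), and is named here outside the rule, after its values were seen.

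Inside the cell, 16 of 26 genes were higher and 10 lower, with 1 (3.85%, beside 6.70% of all genes) at an unadjusted p under 0.05. That gene was Dvl2, a Dishevelled protein that relays the Frizzled signal. It had 7.87 and 7.81 against 7.26 and 7.48, a difference of 0.47 (SE 0.13; limma adjusted p = 0.606). Beta-catenin itself (Ctnnb1) had 13.10 and 13.09 against 12.87 and 12.91, a difference of 0.20 (SE 0.11; limma adjusted p = 0.897). The groups of both genes were separate. Daam1, a formin of the polarity route, and the corepressor gene Tle2 stood at 0.27 (SE 0.12) and 0.45 (SE 0.22), and Tle2 at 0.13 without metastatic replicate 1. Averaged over their probe sets, Daam1 stood at 0.04 and Ctnnb1 at 0.43.

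Among 15 genes that Wnt signalling is known to induce, 5 were higher and 10 lower, and 3 (20.0%, beside 4.07% of all genes lower) stood at an unadjusted p under 0.05, all lower. Apcdd1, a membrane protein that restrains Wnt signals, had 9.02 and 7.50 against 9.73 and 9.99. All values were lower in the metastatic group, and metastatic replicate 2 was far below the other arrays. The name of this probe set marks it as able to bind several transcripts. The difference was -1.60 (SE 0.47; limma adjusted p = 0.642), with -0.83 without metastatic replicate 2 and -1.07 as the mean of its probe sets. Jun, a subunit of the AP-1 factor, had -0.40 (SE 0.12), the receptor gene Tnfrsf19 -0.31 (SE 0.12) and Rnf43, a ligase that removes Frizzled receptors, 0.21 (SE 0.11). The last 2 were dim. Several genes of this list, Jun among them, respond to many other signals. Tnfrsf19 stood at -0.17 with the mean of its probe sets.

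**Figure D5:**
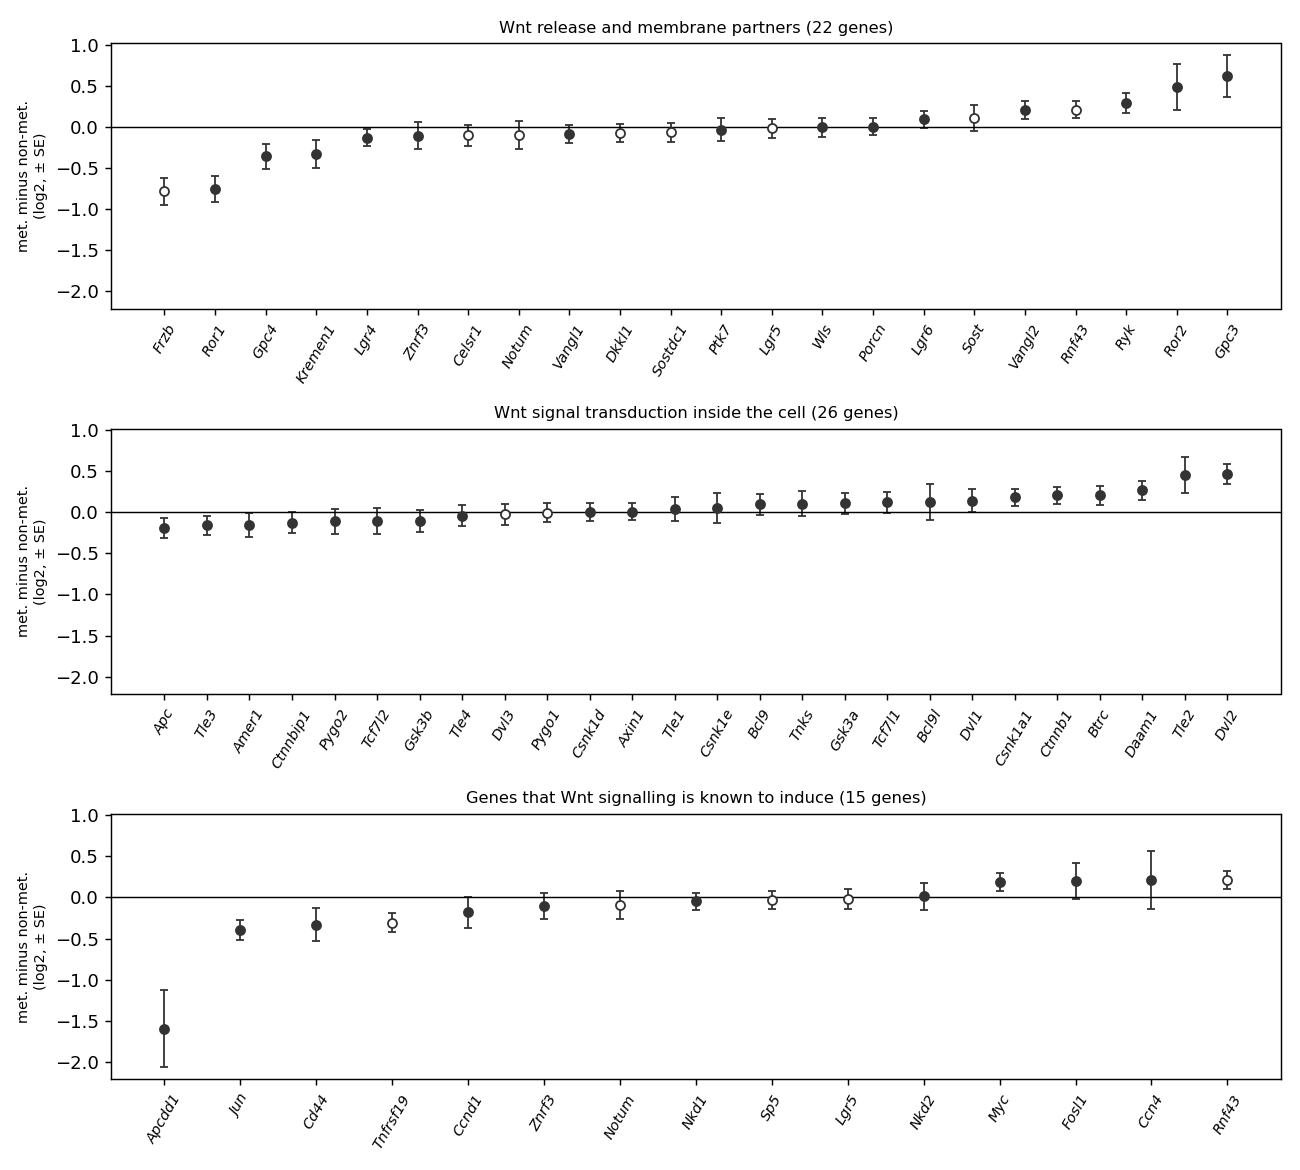
Difference in log2 signal (metastatic minus non-metastatic, with standard error) for genes of the 3 pathway lists, ordered by value. Filled points have a mean signal at or above the median of all probe sets, and 4 genes are in the first and the last list. Apcdd1 lies lowest at -1.60, Ror1 and Frzb at -0.75 and -0.78, and the genes of signal transduction lie between -0.19 and 0.47.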

How the data were processed

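The deposited values are a log2 signal per probe set of Affymetrix arrays, as their range shows. How the authors summarised and normalized the probes is not given in the sources used here. The labels' protocols give 3 ug of starting RNA. Array medians differed by 0.116, above the limit of 0.1 set for quantile normalization, and quantile normalization was applied (limma 3.58.1, R 4.3.3). Of 45101 probe sets, 64 controls were left out and none for dimness. Symbols came from the platform annotation and were updated by Entrez number (34945 probe sets had 1 symbol).

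Groups came from the titles, 2 biological replicates each. limma (lmFit, eBayes) tested metastatic minus non-metastatic over all probe sets, two-sided, with Benjamini-Hochberg adjustment. The residual degrees of freedom were 2. The number of arrays limits the precision. The scripts were tested on simulated data. Members and lists were chosen with earlier results of these data known.

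Values in full were given for members that differed by at least 0.5, had a mean at or above the median of all probe sets, or were Axin2, Lef1, Lrp5 or Lrp6. From each pathway list the 4 genes with the smallest p and any past 2-fold were named. For Dkk2, the 5 most similar genes over the arrays were named. Other genes are said to be outside this rule. Figures used Python 3.11.15 with matplotlib 3.10.9.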

Additional observations from a re-analysis of the deposited data

How the results depend on the processing

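The 10 alternatives were the deposited log2 values, centred array medians, dim probe sets left out, averaging over probe sets, trend with robust moderation, the replicate block and each array left out. Of the 30 members given in full, 17 kept their sign under each alternative that held them. Lrp5, among the 17, and Lef1 were too dim for the fit with dim probe sets left out. With the mean of probe sets 3 members stood at an unadjusted p under 0.05 in place of 6. With trend and robust moderation 5 probe sets passed, none of a member. Blocking by replicate number, which the labels do not call a pairing (correlation of same-number deviations 0.25), gave 145 probe sets and 2 members past adjustment (Dkk2, adjusted p = 0.0101, and Sfrp2, 0.0193), and 10 other pathway genes at an unadjusted p under 0.05. Adjusted p of Dkk2 ran from 0.0101 to 0.799 and of Sfrp2 from 0.0193 to 1. The cause of these changes was not tested.

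Leaving out single arrays gave 0 to 67 probe sets and 0 to 1 members past adjustment (Fzd4, without metastatic replicate 1, where Apcdd1 also passed), 4 to 11 members and 4 to 12 other pathway genes at an unadjusted p under 0.05, and 2 to 4 members past 2-fold. The members' median difference ran from -0.14 to -0.01. Signs turned, with ranges over these fits, for Dkk3 (-0.86 to 0.0675), Fzd10 (-0.25 to 0.23), Fzd8 (-0.0251 to 0.19), Lef1 (-0.0834 to 0.0170), Rspo2 (-0.22 to 0.0653), Rspo3 (-0.42 to 0.70), Sfrp4 (-0.0255 to 0.19), Wnt10b (-0.28 to 0.13), Wnt4 (-0.21 to 0.0884), Wnt7a (-0.35 to 0.31), Wnt7b (-0.22 to 0.30) and Wnt9b (-0.0536 to 0.25). Outside them, Axin2 (0.0051) and Lef1 (0.0807) turned with the mean of probe sets, as did Wnt7b (-0.0238), and Wnt7a with centred medians (0.0027). With 1 array left out, 1 residual degree of freedom remains, and the single array of a group is taken to vary as the other group does. Dim probe sets limit what can be said of 19 members.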

Other observations

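Partners of particular Wnt receptors were looked up after the results were seen. Norrin (Ndp) and Tspan12, which act with Fzd4 in retinal vessels, were both below the median of all probe sets, with log2 signals of 4.29 and 4.63 against 4.74 and 4.58 for Ndp, and 5.81 and 5.21 against 5.60 and 5.54 for Tspan12. The groups overlapped in each. Reck and Adgra2 form the membrane complex through which brain vessels read Wnt7 ligands. Reck had 9.30 and 8.87 on the metastatic arrays against 9.76 and 9.43, so that both metastatic arrays were lower, with a difference of -0.51 (SE 0.19; limma adjusted p = 0.779). Adgra2 had 9.89 and 9.23 against 9.91 and 9.67, a difference of -0.23 (SE 0.23) with overlapping groups.

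Over the 4 arrays, the genes whose values ran most like those of Dkk2 were Cenpv, Lrrn4cl, Nova1, Vldlr and Rpl39l, with Pearson correlations of 0.997, 0.995, 0.994, 0.991 and 0.989. They were taken from 753 genes with a range of at least 1 log2 unit. With so many candidates over 4 arrays, high values are common, and the likeness is a description of these arrays. Lrrn4cl, for example, had 11.10 and 10.84 on the metastatic arrays against 10.18 and 9.56.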
